A study of Mus musculus with 12 samples.

Results

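The genes of the cytosolic ribosomal proteins were examined in mouse B cell acute lymphoblastic leukemia (B-ALL) cells in which β-catenin was stabilized and in which Ikzf1 and Ikzf3 had been targeted. Members were taken by symbol alone, as Rpl or Rps followed by a digit or p, or Rpsa, without the Rps6k kinases and without symbols that carry the pseudogene mark -ps. The rule found 85 of the 12151 genes in the table, 50 of them named for the large and 35 for the small subunit. One symbol it takes in, Rps19bp1, is a protein that binds Rps19 and is not part of the ribosome, which leaves 84 members named as ribosomal proteins or their variants. Among these, Rps3a2 and Rpl37rt are annotated as pseudogenes in GENCODE although their symbols lack the mark. All groups were pre-B cells from bone marrow of mice aged 6 to 12 weeks, transformed with BCR-ABL1 and carrying Ctnnb1Ex3fl/+, an allele of the β-catenin gene from which Cre removes an exon, so that the protein is no longer degraded. Cas9 ribonucleoproteins with nontargeting guides gave the WT background, those with guides against Ikzf1 and Ikzf3 gave the KO background, and lines were grown from single cells. Each background received a GFP vector for ERT2, the hormone-binding domain alone, or for Cre-ERT2, and GFP+ cells were sorted. 4-hydroxytamoxifen (4-OHT) activates Cre-ERT2, and the protocol, worded for chromatin experiments, names day 1 after it. There were 3 libraries for each vector in each background (ERT2 WT, ERT2 KO, Cre-ERT2 WT, Cre-ERT2 KO). The labels do not say whether these were separate clones, cultures or days, so that p-values measure the spread between libraries, which may be technical, and a KO against WT difference cannot be told apart from a difference between single-cell-derived lines.

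Ribosomal proteins assemble with ribosomal RNA into the small subunit, which decodes mRNA, and the large subunit, which joins amino acids. Their genes are among the most strongly transcribed of a growing cell. Most of their mRNAs begin with a C followed by pyrimidines, the terminal oligopyrimidine (TOP) motif, through which mTOR and Larp1 control their translation, and MYC is a known activator of ribosome production. Lack of a single ribosomal protein impairs red cell formation in Diamond-Blackfan anemia, and mutations of ribosomal protein genes also occur in lymphoblastic leukemia.

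The starts of 6 members are shown because they carry, or lack, that common feature and because the last pair recurs among the results. RefSeq promoters (GRCm38.p6) were matched by symbol for 64 of the 85 members, with 75 annotated starts. Each line gives 10 bases before and 20 bases from the start, 5′ to 3′ on the gene's strand, with capitals for the unbroken pyrimidine run that holds the start.
Rpl15, large subunit (chr14:18270967-18270996, minus strand): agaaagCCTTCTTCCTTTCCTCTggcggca
Rps6, small subunit (chr4:86857348-86857377, minus strand): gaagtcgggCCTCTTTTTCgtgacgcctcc
Rplp2, stalk of the large subunit (chr7:141447641-141447670, plus strand): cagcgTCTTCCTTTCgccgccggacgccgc
Rpl22l1, paralog of Rpl22 (chr3:28805498-28805527, plus strand): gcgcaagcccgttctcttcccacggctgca
Rps27, small subunit (chr3:90213629-90213658, minus strand): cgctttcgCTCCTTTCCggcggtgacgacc
Rps27rt, copy of Rps27 (chr9:114982720-114982749, minus strand): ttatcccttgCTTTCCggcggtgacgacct
A start at C that opens at least 5 pyrimidines was found at 14 of the 75 member starts (18.7%) and at 2.51% of all 32851 starts of the RefSeq table. The annotated start of Rpl22l1 is not in such a run, although pyrimidines follow directly. Rps27 and Rps27rt share the bases from CTTTCC to the end of the Rps27 stretch. In the 300 bases from 250 before to 50 after the start, the letters CGGAAG, a binding motif of ETS factors such as GABP, stood on either strand of 61.3% of member promoters and 16.9% of all promoters. The letters GGGAA, the core bound by Ikaros, stood in 68.0% and 62.7%. Both motifs hold GGAA, but with different bases before it, so that a match of the one cannot share its GGAA with the other. The E-box CACGTG, bound by MYC and MAX, stood in 10.7% of member promoters and 7.15% of all. These are descriptions of the letters in the annotated windows, and neither binding nor the start used in these cells was analysed here.

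The table held the authors' normalized log2 values without counts, so that the depth is unknown and replicates alone give the precision. The cells had the pre-B label's markers: all 10 of the list were in the table, among them Cd79a, Pax5, Ebf1 and Vpreb1, with means of 6.32 to 14.74. Their summed level (log2 of the sum of unlogged values) lay between 16.68 and 16.74 in WT and between 16.27 and 16.36 in KO libraries. In KO against WT, 6 of the 10 were called lower in ERT2 and 7 in Cre-ERT2, while Cd22 (0.46 and 0.33, SE 0.056) and Rag1 (0.32 and 0.34, SE 0.041) were higher. Of 6 myeloid markers, Lyz2 and Itgam were listed, with summed levels of 7.57 to 7.62 in WT and 8.45 to 8.76 in KO libraries. Lyz2 was higher in KO (0.99 and 1.23, SE 0.035) and Itgam lower (-0.15 and -0.18, SE 0.018). Of 6 T cell markers, Lck alone was listed, at 8.81 to 9.73 in WT and 7.40 to 7.79 in KO libraries. Neither the 4 erythroid nor the 4 stromal markers were listed. What part these differences have in the KO against WT results was not tested. Ikzf3 was lower in KO libraries (difference -0.65 ± 0.043 (SE) in ERT2), whereas Ikzf1 was higher (1.01 ± 0.018), so that mRNA does not show the targeting of Ikzf1, and "KO" stands for the libraries labelled so.

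Ribosomal protein genes stood near the top of the expression range. The median of the 85 member means was 14.03 on the log2 scale, the highest was 16.03 (Rpl4, at the exit tunnel of the large subunit), and 74 members had a mean of at least 12, a level reached by 9.41% of all genes. At the other end, 6 members had means below 10, among them Rps3a2, Rps12, Rps27, Rps19bp1 and Rpl12. Per length of the principal transcript (83 members with one annotated, 345 to 5179 bases), the median log2 level per kilobase was 14.28. Where several transcripts tied as principal the longest was taken, such as 5179 bases for Rps15a, so that levels per kilobase depend on this choice. Rps4x, the X-linked small subunit protein, was highest at 15.86 per kilobase, followed by Rps3a1 at 15.85, and their difference is smaller than the SD between replicate libraries of Rps4x in ERT2 WT (0.027). Rps12 was lowest at 5.42 per kilobase and Rpl5 stood at 9.32, both genes with near-identical copies that are taken up after the comparisons. Members together held 6.94% ± 0.098 (SD, n = 3) of the summed unlogged values in ERT2 WT, 6.75% ± 0.029 in Cre-ERT2 WT, 7.15% ± 0.074 in ERT2 KO and 7.27% ± 0.21 in Cre-ERT2 KO.

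The members moved together from library to library within a group, by amounts as large as most of the β-catenin differences. In ERT2 WT, 79 of the 85 members lay above their group mean in replicate 1 and 7 of 85 in replicate 3, with median deviations of 0.028 and -0.035. In Cre-ERT2 KO, 78 of 85 lay above in replicate 2 and 14 of 85 in replicate 1, with median deviations of 0.045 and -0.036. The Cre-ERT2 WT libraries were close to each other, with 39 to 45 of 85 members above the group mean, and the ERT2 KO libraries ranged from 17 to 62. The other 1070 genes with a mean of at least 12 stayed within 0.0070 of their group means in the median of every library. In replicate 2 of Cre-ERT2 KO the 79 mitochondrial ribosomal proteins also lay higher, by 0.029 in the median. The pooled SD of a library's median member value was 0.028.

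**Figure D1:**
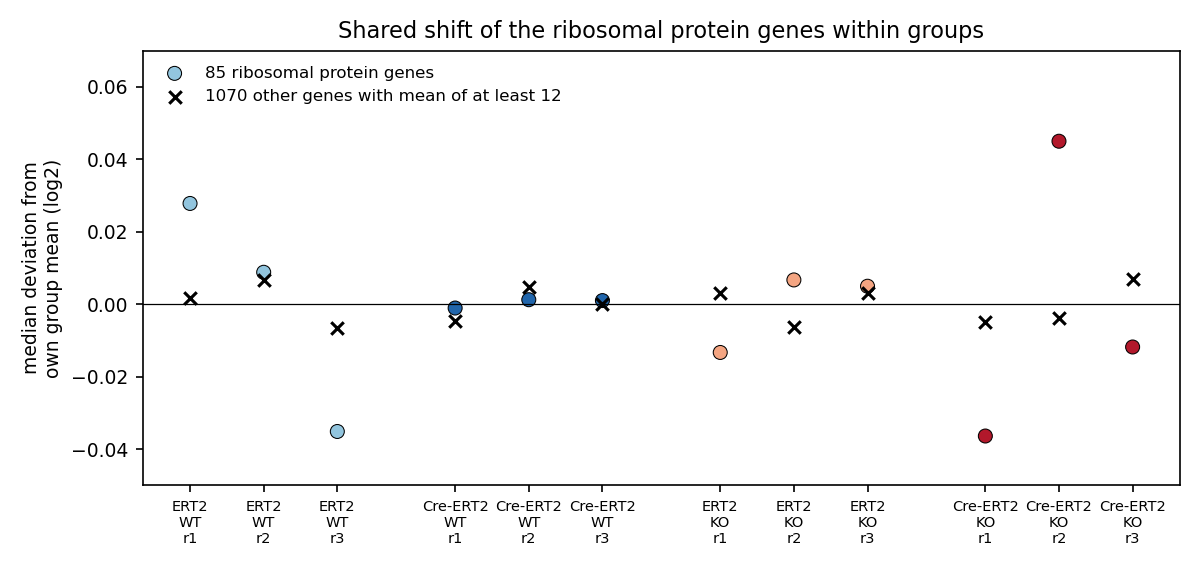
Median deviation from the own group mean on the log2 scale (y axis) in each of the 12 libraries (x axis, r1 to r3 within 4 groups); circles stand for the 85 ribosomal protein genes and crosses for 1070 other genes with a mean of at least 12. The circles of ERT2 WT r1 (0.028) and r3 (-0.035) and of Cre-ERT2 KO r2 (0.045) and r1 (-0.036) lie far apart, while the crosses stay within 0.0070 of 0.

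To ask whether stabilized β-catenin altered ribosomal protein mRNA in cells with Ikaros factors, Cre-ERT2 WT was compared with ERT2 WT. Ribosomal protein genes were slightly lower in 79 of 85 cases, with a median log2 difference of -0.041 against 2.18e-05 over all genes, and 4 members were called by limma at an adjusted p under 0.05, all lower. Over all 12151 genes 11.9% were called, 5.93% higher and 5.95% lower, so that 4 of 85 is not above the background. Among them were Rps27l, Rps2 and Rpl7l1.
Rps27l, a paralog of Rps27 that p53 is known to induce, had values of 11.32, 11.30 and 11.28 in ERT2 WT, 11.16, 11.15 and 11.17 in Cre-ERT2 WT, 11.27, 11.36 and 11.28 in ERT2 KO and 11.28, 11.32 and 11.24 in Cre-ERT2 KO. Its 3 Cre-ERT2 WT values lay below the other 9. The difference in WT was -0.13 ± 0.029 (SE), with an adjusted p of 0.0089.
Rps2, a small subunit protein near the mRNA entry, measured 14.95, 14.94 and 14.88 against 14.83, 14.83 and 14.82 (difference -0.097 ± 0.026, adjusted p = 0.030). Rpl7l1, a paralog of Rpl7 with a role in large subunit assembly, measured 11.80, 11.76 and 11.82 against 11.69, 11.70 and 11.70 (difference -0.097 ± 0.027, adjusted p = 0.039). The groups did not overlap for any of these 3 genes, and the exact two-sided permutation test of 3 against 3 libraries gave p = 0.10 for each, the smallest it allows. All 3 Cre-ERT2 WT values lay below all 3 ERT2 WT values for 21 of 85 members (15.9% of all genes), and above them for 0 of 85 (15.2% of all genes). Among genes with a mean of at least 12, a level that 74 members reach, these shares were 26.2% and 21.9%. Of those genes 22.1% were called.
Leaving out any replicate but ERT2 WT replicate 3 reduced the 4 calls to 1 (each Cre-ERT2 WT replicate) or 2 (ERT2 WT replicates 1 and 2), and without ERT2 WT replicate 3 there were 6. Only Rps27l among the 4 kept its call in every alternative run. ERT2 WT replicate 3 itself lay at the level of the Cre-ERT2 WT libraries, with a median member deviation from the mean over all groups of -0.049 against -0.054 to -0.050. The median difference was -0.061 without that library and -0.025 without replicate 1 of ERT2 WT.

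The same comparison in KO cells, Cre-ERT2 KO against ERT2 KO, had the opposite sign. Here 68 of 85 members were higher, the median log2 difference was 0.035 against -0.00041 over all genes, and 2 members were called, both higher, where 12.6% of all genes were called, 7.27% higher and 5.33% lower. All 3 Cre-ERT2 KO values lay above all 3 ERT2 KO values for 16 members (14.5% of all genes) and below them for 1 (13.9%). Among genes with a mean of at least 12 these shares were 21.1% and 19.6%, and 23.9% were called.
Rps24, a small subunit protein of the Diamond-Blackfan list, measured 14.58, 14.62 and 14.61 in ERT2 KO and 14.68, 14.72 and 14.78 in Cre-ERT2 KO, a rise of 0.12 ± 0.026 (adjusted p = 0.011). In WT its values were 14.68, 14.70 and 14.64 in ERT2 and 14.72, 14.69 and 14.72 in Cre-ERT2, which overlap.
Rpl22, an RNA-binding large subunit protein needed for T cell development and deleted in some T cell leukemias, measured 13.45, 13.47 and 13.47 against 13.52, 13.59 and 13.57, a rise of 0.097 ± 0.024 (adjusted p = 0.019). Neither was called when only the 6 libraries of the comparison entered the fit (adjusted p = 0.061 for Rps24 and 0.071 for Rpl22). Rpl22 also lost its call with quantile normalization (0.055, adjusted p = 0.14) and without ERT2 KO replicate 1 or Cre-ERT2 KO replicate 2 or 3 (adjusted p = 0.069, 0.072 and 0.053).
The median rested on Cre-ERT2 KO replicate 2. That library had a median member deviation of 0.091 from the mean over all groups, whereas replicates 1 and 3 had 0.014 and 0.022 and the ERT2 KO libraries 0.0078 to 0.018. Without it the median difference was 0.0087 and 1 member was called, and without Cre-ERT2 KO replicate 1 the number called was 12, all higher. Without ERT2 KO replicate 1 it was 1.

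**Figure D2:**
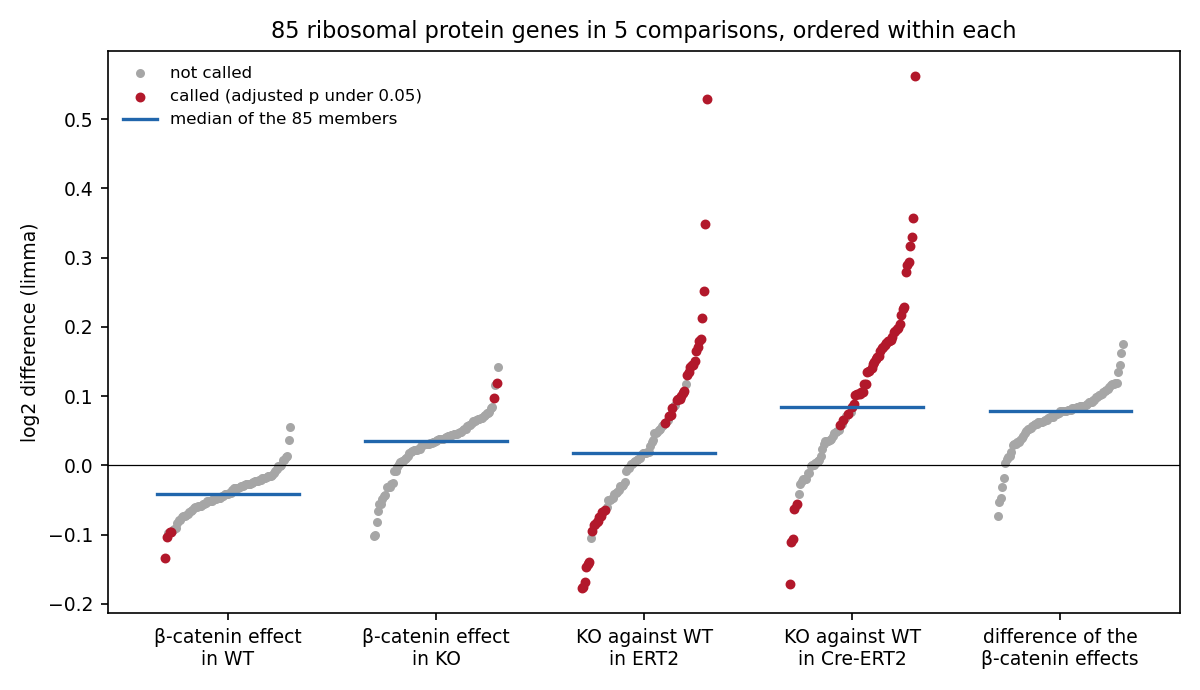
Log2 differences by limma (y axis) of the 85 ribosomal protein genes in each of the 5 comparisons (x axis), ordered within a comparison; red points were called at an adjusted p under 0.05 and the blue line is the median. The medians are -0.041, 0.035, 0.018, 0.084 and 0.078, and the widest ranges are those of KO against WT, with Rpl22l1 at the top of both.

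The difference between the β-catenin effects of KO and WT cells was above 0 for 80 of 85 members, with a median of 0.078 against 0.0011 over all genes, and limma called 0 of 85 where it called 4.53% of all genes, 2.71% higher and 1.82% lower. At an unadjusted p under 0.05 there were 26 of 85 members and 2101 of all 12151 genes. Rpl22 came closest, at 0.12 ± 0.034 (adjusted p = 0.077), followed by Rpl13a, at 0.12 ± 0.035 (adjusted p = 0.093). The median was 0.046 without Cre-ERT2 KO replicate 2. Without Cre-ERT2 KO replicate 1 the calls numbered 7, without ERT2 WT replicate 3 they numbered 4, and without any other library they numbered 0. The share of the large subunit members above 0 was 48 of 50 and that of the small subunit members 32 of 35. Across the 85 members, the differences in WT and in KO, which share no library, had a Pearson r of 0.44 and a Spearman rho of 0.46, so that members lower in WT were on the whole among the less raised in KO. Members are measured in the same libraries and are not independent.

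KO against WT gave the largest differences, in which single ribosomal protein genes moved apart from each other. In ERT2 cells 24 members were higher and 15 lower among 39 called, where 59% of all genes were called, 29.8% higher and 29.3% lower. Among 50 called in Cre-ERT2 cells, 45 had higher and 5 lower values in KO, where 58.9% of all genes were called, 30.4% higher and 28.6% lower. Called shares of 45.9% and 58.8% are thus not above those of all genes, while the split in Cre-ERT2 cells leaned to higher values. Among genes with a mean of at least 12, 72.6% were called in ERT2 (28.3% higher, 44.2% lower). In Cre-ERT2 71.9% of those genes were called (30.4% higher, 41.5% lower). All KO values lay above all WT values for 29 members in ERT2 and 47 in Cre-ERT2 (33.3% and 32.9% of all genes) and below them for 18 and 5 (32.1% and 30.7%). In both vectors together 24 members were called higher (28.2%, all genes 25%) and 5 lower (5.88%, all genes 24.1%). The median member difference was 0.018 in ERT2 and 0.084 in Cre-ERT2 cells, against 0.0016 in both over all genes and -0.043 and -0.026 over genes with a mean of at least 12. In ERT2 the sign of the median depended on the scaling, being -0.014 with each library centered on its median, where 17 members were called higher and 23 lower, and 0.062 with quantile normalization, where 37 were higher and 8 lower. In Cre-ERT2 the median was 0.051 and 0.12, with 38 higher and 8 lower, and 53 higher and 3 lower. Without Cre-ERT2 KO replicate 2 it was 0.052, with 44 called. In ERT2 it was 0.00062 without ERT2 WT replicate 3 and 0.029 without ERT2 WT replicate 1. Over the members, the KO against WT differences of ERT2 and Cre-ERT2 cells, which share no library, had a Pearson r of 0.93 and a Spearman rho of 0.90. Among the 29 members called in both, none changed sign.

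The largest rise was that of Rpl22l1, the paralog of Rpl22 in the large subunit. It measured 11.86, 11.87 and 11.80 in ERT2 WT, 11.76, 11.77 and 11.83 in Cre-ERT2 WT, 12.33, 12.39 and 12.40 in ERT2 KO and 12.34, 12.37 and 12.34 in Cre-ERT2 KO. All 6 KO libraries lay above all 6 WT libraries, by far more than the replicate SDs of 0.017 to 0.041. The rise was 1.44-fold in ERT2 (log2 0.53 ± 0.028, adjusted p = 5.17e-09) and 1.48-fold in Cre-ERT2 (0.56 ± 0.028, adjusted p = 2.72e-09).
Rpl5, which with Rpl11 and the smallest ribosomal RNA forms a particle that also binds Mdm2, measured 10.16, 10.23 and 10.28 in ERT2 WT, 10.11, 10.11 and 10.18 in Cre-ERT2 WT, 10.54, 10.60 and 10.58 in ERT2 KO and 10.51, 10.47 and 10.49 in Cre-ERT2 KO. The KO libraries were again all above the WT libraries, with log2 differences of 0.35 and 0.36 (SE 0.032 each, adjusted p = 1.05e-06 and 7.94e-07), although this row holds a small part of the signal of Rpl5 and its copy.
Rpl11, its partner, measured 14.27, 14.27 and 14.23 in ERT2 WT, 14.21, 14.23 and 14.19 in Cre-ERT2 WT, 14.33, 14.36 and 14.33 in ERT2 KO and 14.36, 14.39 and 14.39 in Cre-ERT2 KO. KO libraries were higher throughout, by 0.083 ± 0.019 and 0.17 ± 0.019 (adjusted p = 0.0022 and 6.26e-06).
Rps2 had 15.17, 15.17 and 15.19 in ERT2 KO and 15.14, 15.19 and 15.09 in Cre-ERT2 KO, above all WT values given earlier, by 0.25 and 0.32 (SE 0.026, adjusted p = 3.02e-06 and 3.33e-07).
Rpl13a, a large subunit protein, measured 13.64, 13.63 and 13.60 in ERT2 WT, 13.57, 13.52 and 13.56 in Cre-ERT2 WT, 13.82, 13.82 and 13.88 in ERT2 KO and 13.85, 13.91 and 13.89 in Cre-ERT2 KO. It rose by 0.21 and 0.33 (SE 0.025, adjusted p = 8.93e-06 and 1.41e-07), and the groups did not overlap. Rpl36, of the large subunit, rose by 0.18 and 0.29 (SE 0.036), and Rpl12, near the stalk base, by 0.18 and 0.13 (SE 0.040, adjusted p = 0.0019 and 0.012).

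A small group fell in KO cells. Rps19, the small subunit protein most often mutated in Diamond-Blackfan anemia, measured 14.54, 14.50 and 14.48 in ERT2 WT, 14.52, 14.48 and 14.53 in Cre-ERT2 WT, 14.31, 14.36 and 14.32 in ERT2 KO and 14.36, 14.40 and 14.25 in Cre-ERT2 KO. Every KO library lay below every WT library, and the difference was -0.18 ± 0.034 in ERT2 (adjusted p = 0.00064) and -0.17 ± 0.034 in Cre-ERT2 (adjusted p = 0.00073).
Rps29, a zinc-binding small subunit protein, measured 13.77, 13.69 and 13.70 in ERT2 WT, 13.68, 13.73 and 13.67 in Cre-ERT2 WT, 13.56, 13.59 and 13.58 in ERT2 KO and 13.59, 13.64 and 13.51 in Cre-ERT2 KO, all lower in KO. Its differences were -0.15 and -0.11 (SE 0.032, adjusted p = 0.0014 and 0.0091), the latter not called with quantile normalization (-0.085, adjusted p = 0.057).
Rps27rt measured 13.41 to 13.46 in ERT2 KO and 13.49 to 13.56 in Cre-ERT2 KO, below the range of 13.59 to 13.64 of the 6 WT libraries, with differences of -0.17 and -0.11 (SE 0.023, adjusted p = 3.84e-05 and 0.0016).
Rpl19, at the exit tunnel and in a bridge between the subunits, fell by 0.14 in ERT2 and 0.063 in Cre-ERT2 (SE 0.021, adjusted p = 7.39e-05 and 0.021), and Rpl21 by 0.14 and 0.056 (SE 0.023, adjusted p = 0.00016 and 0.049). In Cre-ERT2 these were marginal. The Rpl19 call was lost without Cre-ERT2 WT replicate 1 or 3 or Cre-ERT2 KO replicate 1 (adjusted p = 0.067, 0.066 and 0.085), and that of Rpl21 without Cre-ERT2 WT replicate 2 or 3 or Cre-ERT2 KO replicate 1 or 2 (adjusted p = 0.14, 0.12, 0.19 and 0.065).
Rps7, an Mdm2-binding small subunit protein, measured 14.32, 14.25 and 14.24 in ERT2 WT and 14.06, 14.12 and 14.10 in ERT2 KO, a fall of 0.18 ± 0.028 (adjusted p = 0.00013), but its Cre-ERT2 values of 14.18, 14.21 and 14.23 in WT and 14.11, 14.19 and 14.13 in KO overlapped (-0.059 ± 0.028, adjusted p = 0.086).

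**Figure D3:**
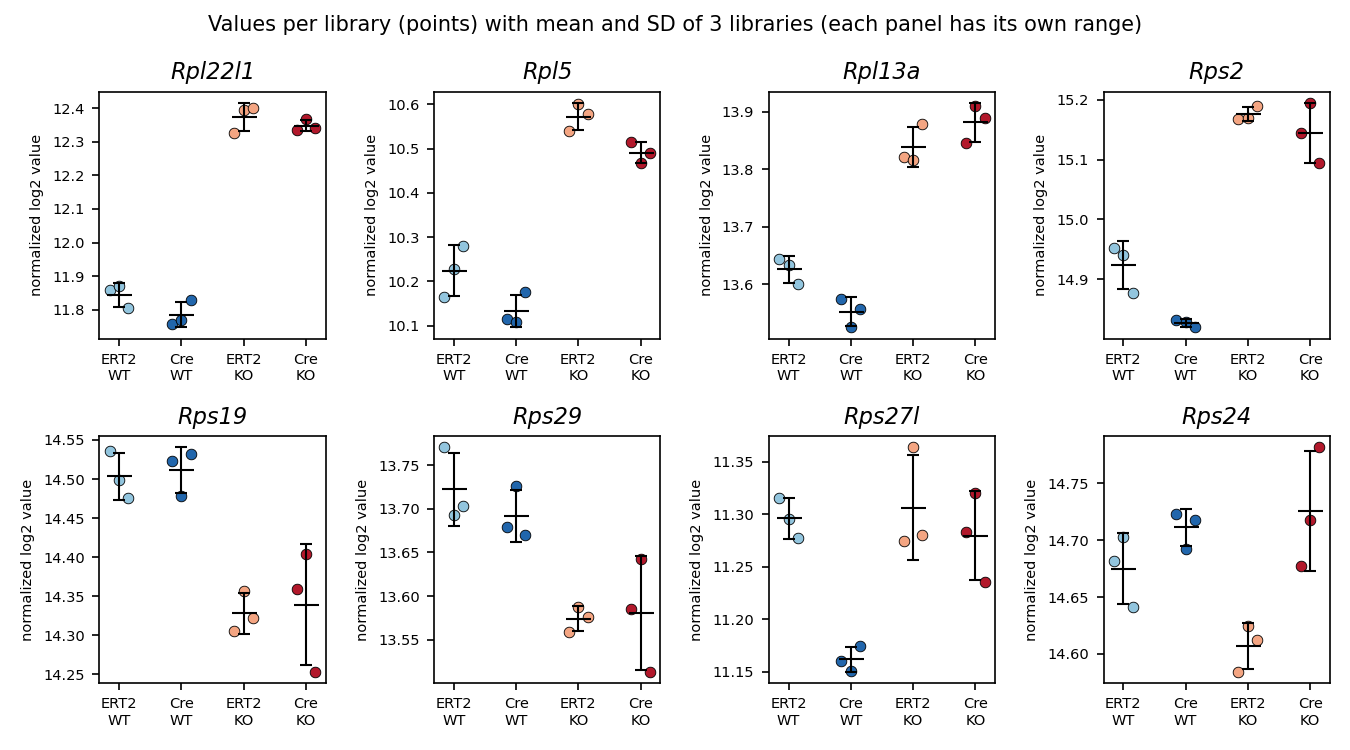
Normalized log2 values (y axes, a separate range in each panel) of 8 ribosomal protein genes in the 12 libraries, with the mean and SD of each group of 3; Cre stands for Cre-ERT2. Rpl22l1, Rpl5, Rpl13a and Rps2 are higher in every KO library and Rps19 and Rps29 lower, Rps27l is low in Cre-ERT2 WT alone (11.15 to 11.17), and Rps24 is lowest in ERT2 KO (14.58 to 14.62).

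The members were also counted by place and role in the ribosome. Rpl5 and Rpl11, the pair that binds the smallest ribosomal RNA, were both called higher in KO in both vectors. Of the 3 stalk proteins, which recruit the translation GTPases, Rplp1 was higher in KO in both vectors (0.15 and 0.23, SE 0.036, adjusted p = 0.0040 and 0.00015), Rplp0 was higher in Cre-ERT2 (0.10 ± 0.029, adjusted p = 0.0091, but 0.0998 with quantile normalization) with 0.019 ± 0.029 in ERT2, and Rplp2 had -0.048 and 0.0050 (SE 0.031), neither called. Of 8 proteins lining or ringing the exit tunnel, 4 were called higher and 3 lower in ERT2, and 4 higher and 1 lower in Cre-ERT2 (all genes 29.8% and 29.3%, and 30.4% and 28.6%). Rps27a, made as a fusion with ubiquitin, rose by 0.13 and 0.18 (SE 0.025). Rps6, the substrate of S6 kinase, had -0.066 ± 0.033 and 0.035 ± 0.033, not called, and Rps4x had -0.064 ± 0.022 in ERT2 (adjusted p = 0.026, with the sign turned, 0.022, under quantile normalization) and -0.022 in Cre-ERT2. The Rps4x call was lost without ERT2 WT replicate 1 or 2 or ERT2 KO replicate 1 (adjusted p = 0.094, 0.073 and 0.098). Rps19bp1 had -0.060 and -0.041 (SE 0.033), not called. Of the 19 members of the Diamond-Blackfan list, 5 were called higher and 5 lower in ERT2 and 7 higher and 2 lower in Cre-ERT2, so that 52.6% and 47.4% were called against 59% and 58.9% of all genes. Large subunit members had medians of 0.042 and 0.11 and small subunit members of 0.0045 and 0.038. All-gene medians of the 19 chromosomes that hold members lay between -0.017 and 0.020 in both KO comparisons.

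Paralogs of ribosomal proteins were set against their partners, per length of the principal transcript, as the log2 ratio of the levels within a library. Rpl22l1 relative to Rpl22 was 0.33 ± 0.016 (SD, n = 3) in ERT2 WT, 0.30 ± 0.047 in Cre-ERT2 WT, 0.80 ± 0.030 in ERT2 KO and 0.68 ± 0.030 in Cre-ERT2 KO. As a share of the pair's summed level per length this was 55.8%, 55.1%, 63.5% and 61.6%. The level of each ratio depends on the transcript chosen for the length, whereas its differences between groups do not. All KO ratios (0.66 to 0.82) lay above all WT ratios (0.26 to 0.35).
Rps27l relative to Rps27 and Rps27rt together was -2.76 ± 0.011 in ERT2 WT, -2.91 ± 0.013 in Cre-ERT2 WT, -2.59 ± 0.039 in ERT2 KO and -2.69 ± 0.018 in Cre-ERT2 KO, so that every Cre-ERT2 group lay below its ERT2 group and every KO group above its WT group, without overlap of libraries. Rps27l itself was higher in Cre-ERT2 KO than in Cre-ERT2 WT (0.12 ± 0.029, adjusted p = 0.0036) and had 0.010 ± 0.029 in ERT2.
Rpl7l1 relative to Rpl7 lay between -5.10 and -4.93 and Rpl36al relative to Rpl36a between -2.11 and -2.03 in the group means. The Rpl7l1 ratios of ERT2 WT (-4.97 to -4.88) lay above those of Cre-ERT2 WT (-5.05 to -5.03) and ERT2 KO (-5.07 to -4.98). Those of Cre-ERT2 KO (-5.14 to -5.04) overlapped with Cre-ERT2 WT and with ERT2 KO. Rpl36al, which differs little from Rpl36a, was called higher in Cre-ERT2 (0.11 ± 0.027, adjusted p = 0.0051), and Rpl7l1 was called lower in ERT2 (-0.085 ± 0.027, adjusted p = 0.018), though not without ERT2 WT replicate 3 (adjusted p = 0.066) or ERT2 KO replicate 3 (adjusted p = 0.075), nor with quantile normalization (adjusted p = 0.21).

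Many ribosomal protein mRNAs have near-identical retrocopies in the mouse genome, and in this table much of their signal stood in the rows of those copies. Stretches of 31 bases were compared between the principal transcript of each member and all GENCODE vM21 transcripts (GRCm38). A copy was taken where at least 20% of these stretches were shared in both directions. This also takes in less similar rows, such as Gm16061, which shared 23.4% of the stretches of Rps2. Another, Gm28037, is a processed transcript that overlaps Rpl24 itself. There were 111 such copies in the table for 53 members, 76 of them with means below 6 and 30 with means of at least 10. For 10 members the copies held more of the summed unlogged value than the member's own row.
Rpl5 (chr5:107900502-107909005, mean 10.36) held 2.7% beside Gm15500 (chr7:114705217-114706235, annotated as a transcribed processed pseudogene, mean 15.53), Rpl12 (chr2:32961559-32965345, mean 9.27) held 1.99% beside Gm10275 (chr10:29698746-29699380, mean 14.89), and Rps12 (chr10:23785183-23787275, mean 4.64) held 0.29% beside Rps12-ps3 (chr19:59322290-59322783, mean 13.06). Rps27 (mean 7.92) held 2.0% beside Rps27rt (mean 13.55), which the rule counts as a member of its own. Rpl10 held 19.1%, Rpl3 20.6%, Rps23 33.8%, Rpl27a 34.8%, Rpl10a 36.1% and Rps2 48.8%.
Of 30 copies with a mean of at least 9, 11 were identical to the longest reading frame of the member over its whole length. These included Gm15500 over the 894 bases of Rpl5, Gm10275 over the 498 of Rpl12, Rps12-ps3 over the 399 of Rps12 and Rps27rt over the 255 of Rps27. Reads from such stretches cannot be told apart, and how the authors' quantification divided them was not tested.
Compared without gaps, Gm7536, Rpl28-ps1, Rps13-ps2 and Rps23-ps matched their members at every base of an aligned part (444, 414, 453 and 425 bases). That part was shorter than the member's reading frame. The remaining copies differed at 1 base (as between Rpl11 and Gm10288, of 537) to 128 of 653 (Rpl14 and Rpl14-ps1). Without gaps an inserted or lost base shifts all later bases, so that 128 can overstate the differences. Rpl14-ps1 shared 85.39% of its stretches of 31 bases with Rpl14. Rps2 and Rps2-ps10 differed at 5 of 882 bases and Rps7 and Gm6472 at 3 of 585. A stretch of 30 bases that holds 2 of the differences is shown for each pair, with capitals for the differing bases and positions counted from the A of the start codon.
Rps2, bases 424 to 453: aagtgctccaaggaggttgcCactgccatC
Rps2-ps10, same bases: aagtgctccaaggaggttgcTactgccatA
Rps7, bases 19 to 48: aagatcgTgaagcccaatggcgagaagccG
Gm6472, same bases: aagatcgGgaagcccaatggcgagaagccA

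When each member and its copies were summed before the fit, an alternative chosen after seeing the data, 82 members remained, since Rps27rt, Rpl37rt and Rps3a2 were merged with Rps27, Rpl37 and Rps3a1. The share of the summed unlogged values then rose to between 8.11% and 9.13% per library. In Cre-ERT2 cells 49 were called higher and 4 lower in KO (59% of all genes called), and in ERT2 cells 28 higher and 16 lower (59.1% of all genes called).
Rps12 became called only in the summed fit. Its own row had 0.053 and -0.00065 (adjusted p = 0.17 and 0.99), whereas the sum had 12.97, 13.00 and 12.88 in ERT2 WT, 12.91, 12.97 and 12.97 in Cre-ERT2 WT, 13.18, 13.16 and 13.15 in ERT2 KO and 13.15, 13.18 and 13.28 in Cre-ERT2 KO. The summed values did not overlap between KO and WT, and rose by 0.21 and 0.25 (SE 0.037, adjusted p = 0.00028 and 6.7e-05).
Rpl5 kept its direction at a smaller size, with 0.12 and 0.18 (SE 0.023, adjusted p = 0.00057 and 1.8e-05) in place of 0.35 and 0.36. Rpl12 had 0.051 ± 0.021 in ERT2, no longer called (adjusted p = 0.051), and 0.088 ± 0.021 in Cre-ERT2 (adjusted p = 0.0026). Rpl3, not called on its own row (0.065 and 0.047), rose by 0.12 and 0.15 with Rpl3-ps1 (SE 0.021, adjusted p = 0.00026 and 3.8e-05). Rps27 with Rps27rt fell by 0.16 and 0.10 (SE 0.021, adjusted p = 2.1e-05 and 0.00086), and its own row had 0.046 and -0.028 (SE 0.17). Rps7 with Gm6472 fell by 0.13 in ERT2 (adjusted p = 0.00093), and Rps2 with its 14 copies rose by 0.26 and 0.33 (SE 0.024), close to its own row.
In both vectors together, 28 summed members were called higher in KO and 4 lower, against 24 and 4 of the same 82 on their own rows. The difference between the β-catenin effects was above 0 for all 82 summed members, with a median of 0.077 and 0 called. At an unadjusted p under 0.05 there were 25 of these, beside 2101 of all 12151 genes without summing. In WT 77 of 82 were lower with β-catenin (5 called) and in KO 72 of 82 higher (3 called).

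**Figure D4:**
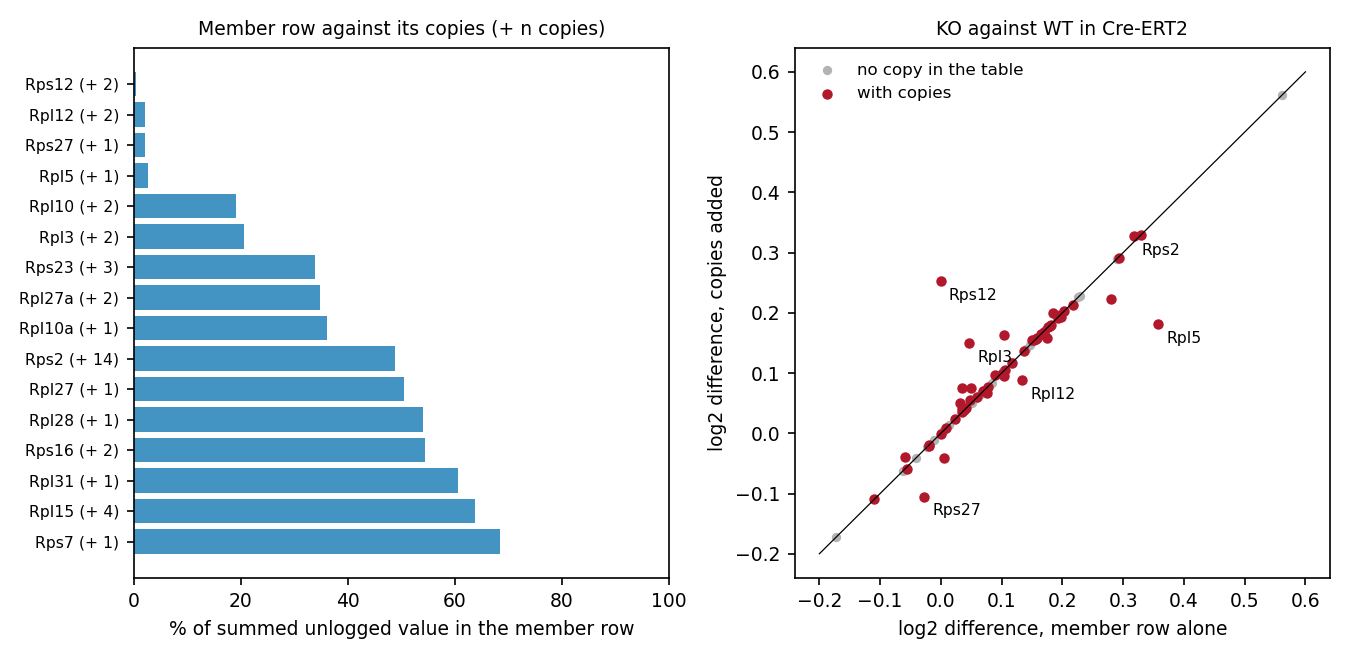
Left, the share (x axis, %) of the summed unlogged value of a ribosomal protein gene and its copies that stood in its own row, for the 16 genes with the lowest share, with the number of copies in parentheses. Right, log2 differences of KO against WT in Cre-ERT2 cells from the own row (x axis) and with copies added (y axis) for 82 genes, with the line of equal values. Rps12 (0.29% in its own row) moves from -0.00065 to 0.25 and Rpl5 (2.7%) from 0.36 to 0.18, while most genes lie on the line.

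Genes that act with the cytosolic ribosomal proteins were counted from lists, to be read against all genes, of which 11.9% were called for β-catenin in WT, 12.6% for β-catenin in KO, 59% for KO against WT in ERT2 and 58.9% in Cre-ERT2. The 79 mitochondrial ribosomal proteins had medians of -0.054 for β-catenin in WT (8 called, all lower), -0.013 in KO (1 called), 0.039 for KO against WT in ERT2 (28 called higher, 14 lower) and 0.074 in Cre-ERT2 (36 higher, 10 lower). Of 14 chaperones and importins of ribosomal proteins, 6 were called lower with β-catenin in WT, led by Grwd1, Ipo5 and Npm1 (-0.17, -0.16 and -0.16), and 1 in KO. In KO against WT, 5 were called higher and 3 lower in ERT2, and 6 and 2 in Cre-ERT2. The rises in ERT2 were led by Heatr3 (0.68 ± 0.043), which carries Rpl5 into the nucleus, Npm1 (0.48 ± 0.028) and the importin Ipo7 (0.38 ± 0.030). Of 17 translation factors with TOP mRNAs, 2 were called lower in WT (Eef1d, -0.11, and Eef1g, -0.087). With β-catenin in KO limma called 0 of them, and 4 had an unadjusted p under 0.05 (3057 of all 12151 genes). In KO against WT, 7 were called higher and 4 lower in ERT2, and 8 and 1 in Cre-ERT2, where Eif4b rose (0.32 and 0.34, SE 0.023) and Tpt1 fell (-0.34 and -0.25, SE 0.035).
Of 14 regulators of ribosomal protein mRNA, 4 were called in WT and 3 in KO with β-catenin, and 9 and 8 in KO against WT. Mtor rose with β-catenin in WT and KO (0.31 and 0.29, SE 0.033) and Larp1 fell (-0.18 and -0.17, SE 0.025), and Eif4ebp1, which restrains cap-dependent translation, was higher in KO (0.54 and 0.60, SE 0.029). Of 12 factors that act at ribosomal protein promoters, 5 were called in ERT2 and 9 in Cre-ERT2 for KO against WT, and Myc alone for β-catenin. Myc measured 12.22, 12.22 and 12.20 in ERT2 WT, 11.56, 11.62 and 11.58 in Cre-ERT2 WT, 13.30, 13.31 and 13.31 in ERT2 KO and 13.00, 12.99 and 13.01 in Cre-ERT2 KO. It fell by 0.62 in WT and 0.31 in KO with β-catenin and was higher in KO by 1.10 and 1.41 (SE 0.019 each), shifts many times those of the median ribosomal protein gene. The Myc difference between the effects was 0.31 ± 0.027 (adjusted p = 2.70e-05). Of 6 genes of surplus ribosomal protein disposal and the p53 response, 1 was called in WT and 3 in KO with β-catenin, and 3 and 4 in KO against WT. Cdkn1a, the p53 target, was lower in KO (-0.64 and -0.66, SE 0.033) and with β-catenin in WT and KO (-0.15 and -0.17, SE 0.033). Fau, a ribosomal protein fusion outside the symbol rule, was not called in any comparison. The difference between the β-catenin effects was above 0 for 63 of 79 mitochondrial ribosomal proteins (median 0.039). So it was for 14 of 14 chaperones and importins (0.045), 15 of 17 translation factors (0.068) and 50.8% of all genes. Of the other lists, 5 of 14 regulators, 6 of 12 promoter factors and 1 of 6 disposal and p53 genes were above 0.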

How the data were processed

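RNA sequencing of 12 libraries was analysed. The authors made polyadenylated RNA libraries from 280 ng of RNA with 10 PCR cycles and, per the labels and the study's methods, used Salmon 1.4.0, STAR 2.7.6 and DESeq2 1.30.1 with mm10 (GRCm38). They deposited 1 normalized log2 value per gene and library. The transformation is not given in the sources used here, no counts were used, and depth is unknown, so no counting interval is given. Compressed low values would understate changes of weak genes.

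Members were chosen by symbol. The members and gene lists were chosen with earlier results of these data known. Groups came from the sample titles. A linear model with 4 group means was fitted by limma 3.58.1 (R 4.3.3; eBayes with a mean trend) to all 12151 genes and 12 libraries, with Benjamini-Hochberg adjustment over all genes and calls at an adjusted p under 0.05. Errors are SEs from this fit unless named SD. The fit was tested on simulated data with independent noise for each gene and library, which lack the shared shifts of the members. Single genes were also compared by an exact two-sided permutation test (smallest p 0.10). No set test was run. Named members were the 5 largest called rises and falls of each comparison, stalk proteins, Rpl5 and Rpl11, variants, Rps27a, Rps6, Rps4x, Rps19 and Rps19bp1, and up to 3 called genes of each other list. A few genes that this rule or a count takes in are not reported here. Rps12, Rpl3, Rpl10, Rps23, Rpl27a, Rpl10a, Rps27, Gm15500, the other copies, Cd22, Rag1 and Itgam were named after their values were seen. Copies were found with GENCODE vM21, and the authors' release was a later one of the same build. The rows tried with other scalings, filters, priors, thresholds, pseudocount of 1, members, libraries and summed copies are given in the closing section.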

Additional observations from a re-analysis of the deposited data

Results flagged for a closer look

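For Rpl11, the large subunit protein that partners Rpl5, all 3 Cre-ERT2 WT libraries lay below all 3 ERT2 WT libraries (difference -0.048) and all 3 Cre-ERT2 KO libraries lay above all 3 ERT2 KO libraries (difference 0.038). The difference between these effects was 0.086, which limma did not call (adjusted p = 0.10). It was the only member of 85 with such opposite moves, a pattern shown by 109 of all genes (0.897%). Groups of 3 libraries are too small for a check of single outlying libraries.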

How the results depend on the processing

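With quantile normalization, the β-catenin comparisons had 2 calls in WT and 1 in KO, and the median KO against WT difference was 0.062 in ERT2 and 0.12 in Cre-ERT2. With each library centered on its median these medians were -0.014, with the sign turned, and 0.051. Rps4x in ERT2 turned to 0.022 with quantile normalization. At an adjusted p under 0.01 the β-catenin calls were 1 in WT and 0 in KO. At an unadjusted p under 0.05 there were 18 of 85 members in each, beside 3030 and 3057 of all 12151 genes. With only the 6 libraries of the comparison limma called 0 in KO. Without Rps19bp1 and the variants 2 were called in WT, and among genes with a mean of at least 12 the difference between the effects had 2 calls. The cause of these changes was not tested, except that fewer genes, members or libraries entered the last of them. Leaving out each library in turn gave 1 to 6 β-catenin calls in WT, 1 to 12 in KO and 0 to 7 for their difference, and medians of 0.0087 to 0.052 for β-catenin in KO, 0.046 to 0.093 for the difference between the effects and 0.052 to 0.10 for KO against WT in Cre-ERT2.

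Over all genes, 1 of 18 correlations between the deviations of same-numbered libraries was above 0.1 (range -0.10 to 0.24). Between ERT2 KO and Cre-ERT2 KO they were 0.088, 0.083 and 0.084 in replicates 1 to 3. Over the members alone, the 18 correlations ranged from -0.59 to 0.73. Between ERT2 WT and Cre-ERT2 WT they were 0.52, 0.21 and 0.73 in replicates 1 to 3. The labels name no pairing, and whether the replicate number marks one for the members was not tested. With a replicate block the calls numbered 2 for β-catenin in either background, 37 and 49 for KO against WT in ERT2 and Cre-ERT2, and 0 for the difference between the effects. Of 1657 recomputed values of named members, 1584 kept their side of the threshold and their sign where called, 60 lost and 12 gained a call, and 1 turned its sign. Without counts, the precision of weak rows such as Rps27 (SE 0.17) cannot be separated into counting and biological error.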
